A study of Mus musculus with 4 samples.

Results

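Of the 25124 genes in the deposited table, 58 carry the symbol of a mucin-type glycosyltransferase family, and 41 of these had enough reads to be tested. They were chosen by symbol alone, as members of the Galnt, Gcnt, B3gnt, C1galt, St3gal, St6gal, St6galnac and Fut families. None of the 41 differed between the SCD1 inhibitor and the vehicle at an adjusted p under 0.05 (limma, Benjamini-Hochberg over all genes tested), where 1.79% of the 13810 genes tested did (1.36% higher and 0.427% lower). The lowest adjusted p was that of Fut2, at 0.177. The fucosyltransferase Fut2 had 113 and 129 normalised reads with DMSO and 9.56 and 32.5 with the inhibitor, and the mucin Muc5b, a substrate of these enzymes, fell 3.69-fold in the same libraries.

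The samples were airway epithelial cells sorted by fluorescence from the lungs of wild-type (WT) C57BL/6 mice. All mice had undergone HDM sensitisation, where HDM is house dust mite, an allergen. The group HDM + DMSO had the vehicle dimethyl sulfoxide, and the group HDM + SCD1 inhibitor had an inhibitor of stearoyl-CoA desaturase 1, the enzyme that makes monounsaturated fatty acids. Each group held 2 samples, and the labels give no age, dose or inhibitor name and do not say whether the samples came from separate or pooled animals, so p-values measure only the spread between these samples. Mice without HDM were not analysed here.

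Mucins are secreted or membrane-bound proteins whose serine- and threonine-rich stretches carry dense O-linked sugar chains. In the Golgi, polypeptide GalNAc transferases (Galnt) attach the first sugar, N-acetylgalactosamine. The core 1 enzyme C1galt1 and the core 2 enzymes of the Gcnt family build on it, B3gnt enzymes extend the chain with N-acetylglucosamine, and sialyltransferases and fucosyltransferases cap it with sialic acid or fucose. The symbol families are wider than this pathway: Fut8 fucosylates the core of N-linked chains, St6gal1 sialylates N-linked chains, and St3gal5 and B3gnt5 act on glycolipids.

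Each library held 24591122 to 27013663 reads assigned to genes, of which 40455 to 46425 (0.165% to 0.173%) fell on the 58 genes. Values below are normalised reads, that is reads per gene scaled by a size factor. A gene was tested if its mean over the 4 libraries reached 25.8, which is 1 CPM (count per 1000000) of the mean table total. Just inside this floor lay Fut9 (mean 26.7) and Galnt16 (28.0), and just outside it Fut1 (22.0) and B3gnt6 (16.9). The 6 general epithelial markers, among them Epcam and Cdh1, summed to 98042 to 103994 reads per library. Markers of alveolar type 2 cells (272781 to 478237) and of ciliated (517259 to 546288) and club cells (464790 to 770047) were abundant too. Of 13 leukocyte markers, summing to 180 to 953 reads, 4 were at 0 in every library (S100a8, S100a9, Mcpt8 and Cpa3). Endothelial markers summed to 4273 to 12654 reads and mesenchymal markers to 1557 to 3874.

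Levels were compared between genes as normalised reads per kilobase of exon. Within each family a few genes held most of the signal. Galnt18 had 1964 and 2089 reads per kilobase with DMSO and 1956 and 1943 with the inhibitor, 37.8% to 41.7% of the Galnt family's sum in each library. Galnt2, a broadly expressed initiating enzyme, came next with a mean of 834, followed by Galnt3 (568) and Galnt6 (540). In the core 1 and core 2 group, C1galt1c1 (Cosmc, the chaperone that C1galt1 needs to fold) had a mean of 417, Gcnt2, which branches N-acetyllactosamine chains, 372 and C1galt1 itself 151. The order of the first 2 was not fixed: C1galt1c1 ranged from 224 to 606 over the libraries and Gcnt2 from 339 to 423. Among the sialyltransferases St3gal2 (673) and St3gal4 (647) led, with overlapping ranges of 598 to 735 and 599 to 684, and among the fucosyltransferases Fut11 (272) and Fut4 (268), at 256 to 301 and 221 to 310.

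B3gnt4 had the highest value of its family, 1670 reads per kilobase against 176 or less for the others. Of its 1423 exon bases 1326 (93.2%) are also exon bases of Diablo, a gene on the other strand with 2698 to 3146 reads per library. Whether the authors counted by strand is not given in the sources used here, so the level of B3gnt4 cannot be told apart from that of Diablo. In all, 23 of the 58 genes share exon bases with a gene on the opposite strand, and 2 share over 20% of theirs with 1 such gene: B3gnt4 and St3gal6. On the same strand, Galnt2 shares 90.0% of its exon bases with Gm20388, and B3gnt2 58.6% with Gm28048. Neither of those genes is listed among the deposited values, and counting by strand would not separate such reads.

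Several enzymes tied to secretory mucosa lay under the floor. Gcnt3, the core 2 enzyme of mucus-secreting epithelia, had 10.7 and 7.93 reads with DMSO and 29.6 and 0 with the inhibitor. St6galnac1, which makes the sialyl-Tn antigen, was at 12.9 in DMSO replicate 2 and 0 elsewhere, and B3gnt6, the core 3 synthase, was at 0 in both DMSO libraries and at 4.78 and 62.9 with the inhibitor. Of the 17 genes under the floor, 5 were at 0 in every library: Fut4-ps1 (a pseudogene), Galnt14, Galnt17, Galntl5 and St6galnac5. The other 12 reached at most 62.9 reads, and each of them except B3gnt8 was at 0 in at least 1 library. Galntl6 had 55.6 and 9.91 reads with DMSO and 0 in both inhibitor libraries. None of these 12 passed in a fit without the floor (lowest adjusted p of all 53 members fitted 0.197, that of Fut2). An unadjusted p under 0.05 was reached by Galntl6 in that fit, with edgeR and with DESeq2, and by B3gnt6 with DESeq2.

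**Figure D1:**
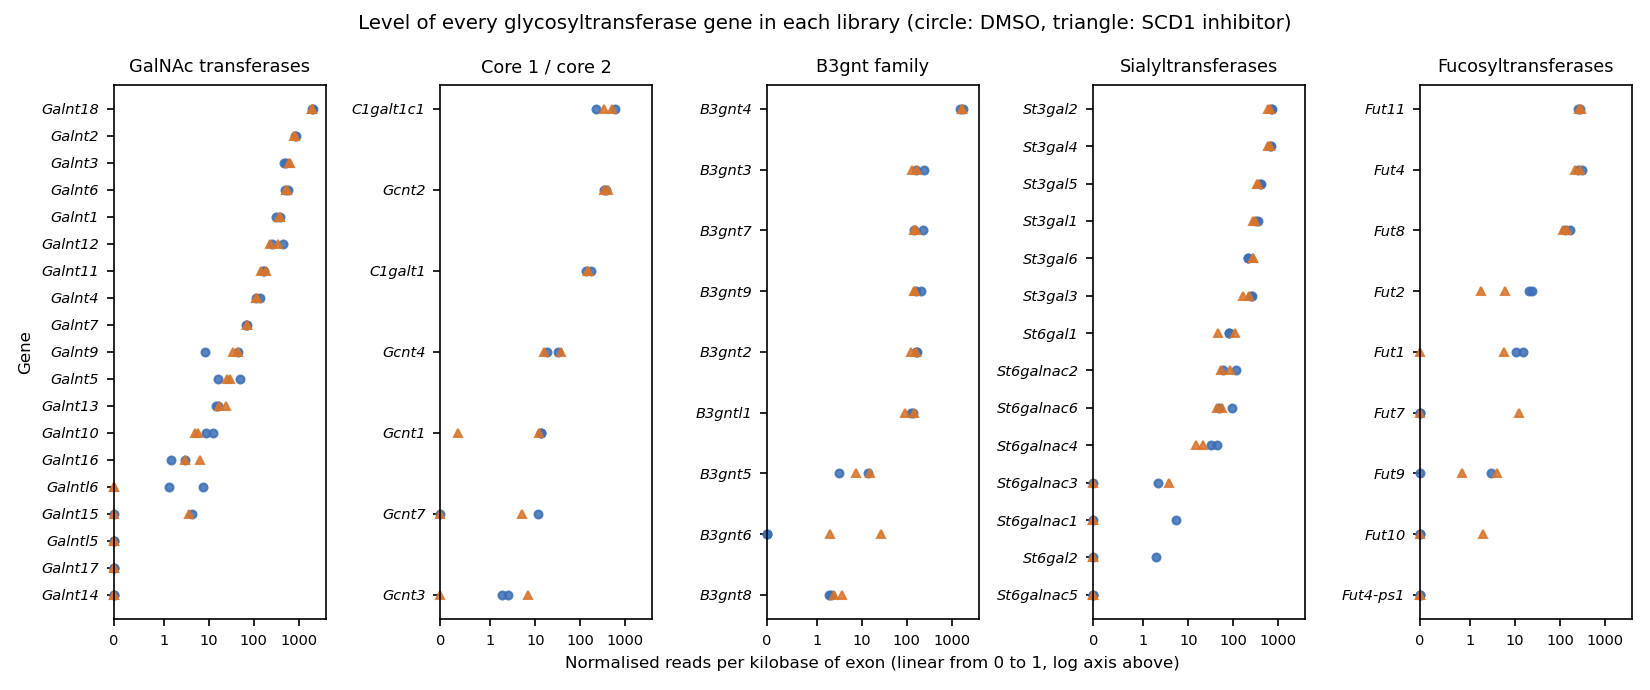
Normalised reads per kilobase of exon (horizontal axis, linear from 0 to 1 and logarithmic above) of all 58 genes in each library, by family; circles are the 2 DMSO and triangles the 2 inhibitor libraries. Most genes above 100 reads per kilobase have circles and triangles side by side. In 11 of the 41 tested genes both triangles lie to the left of both circles, Fut2 and St6galnac4 among them.

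Over the 41 tested genes the median log2 fold change, inhibitor over DMSO, was -0.078, against 0.0056 over all 13810 genes. The spread of the 41 genes' median between replicates was also 0.078 in log2. Fold changes are on the scale log2(value + 25.8), which makes those of low genes smaller. Of the 41, 16 were positive and 25 negative (61.0%), where 49.3% of all genes tested were negative. This difference was not tested. An unadjusted p under 0.05 was reached by 4 genes (9.76%), 2 in each direction, where 14.1% of all genes tested reached it, 8.16% higher and 5.92% lower. The groups did not overlap in 14 of the 41 genes (34.1%), 3 higher and 11 lower with the inhibitor, against 44.9% of all genes tested (22.7% higher and 22.2% lower). With both directions counted, both shares lay below those of all genes. By direction, the share of genes without overlap lay below that of all genes for higher values and above it for lower values. These differences were not tested.

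The 95% interval of the log2 fold change lay between -1 and 1, that is within a 2-fold change either way, for 28 of the 41 genes (68.3%), and for 63.9% of all genes tested. For 12 of them it lay within a 1.5-fold change. For the other 13, mostly genes of low level such as Gcnt1, Fut9 and B3gnt5, the interval reached past a 2-fold change in at least 1 direction.

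**Figure D2:**
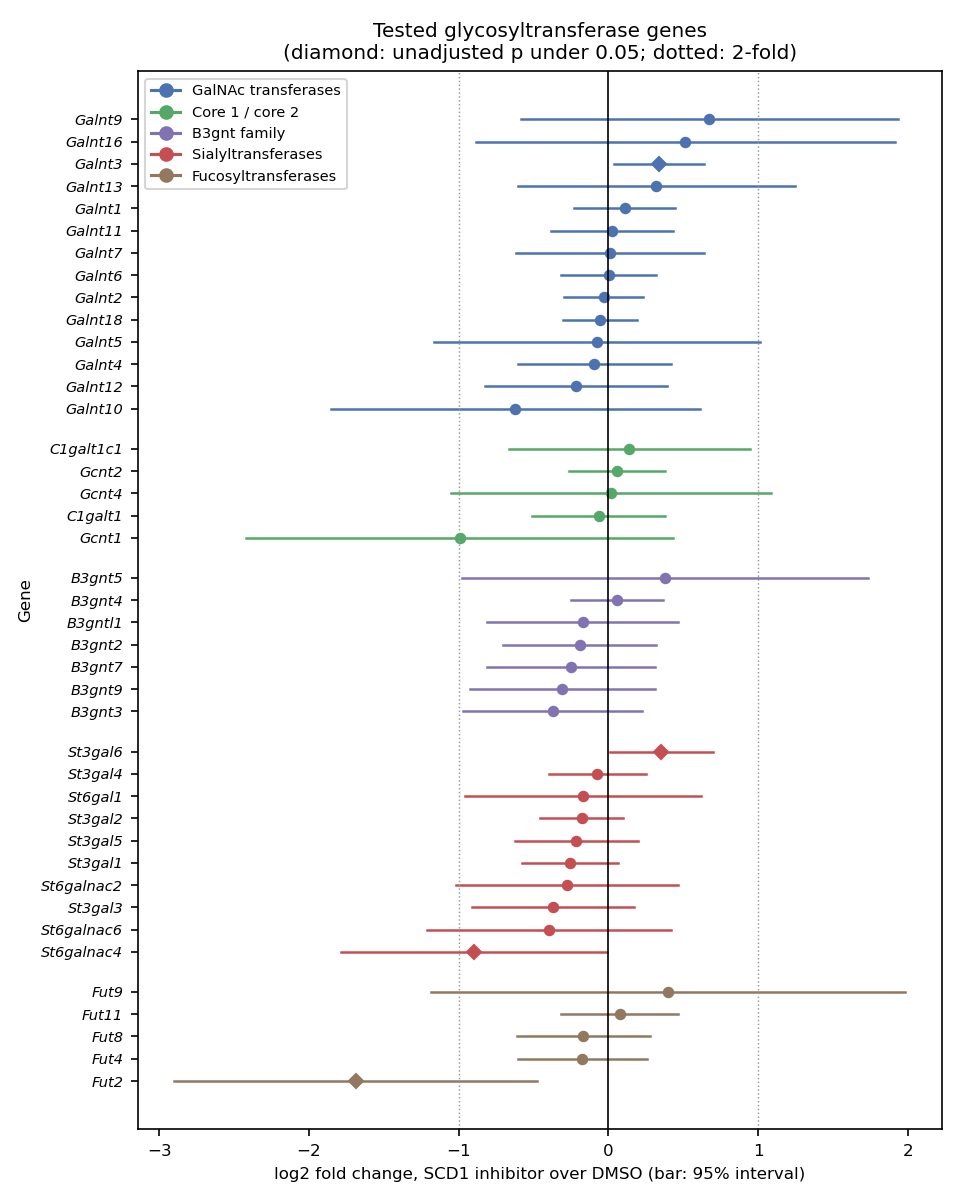
Log2 fold change (inhibitor over DMSO, horizontal axis) with its 95% interval for each of the 41 tested genes, coloured by family and ordered by value within it; diamonds mark an unadjusted p under 0.05 and dotted lines a 2-fold change. The intervals of 37 genes cross 0; those of Fut2, St6galnac4, Galnt3 and St3gal6 do not, and none of these 4 passed the adjusted test.

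The initiating enzymes were split evenly. Of 14 tested Galnt genes, 8 were positive and 6 negative, with a median log2 fold change of 0.0076. The summed reads of all 19 Galnt genes, tested or not, were 18735 and 18186 with DMSO and 18588 and 18976 with the inhibitor, which overlap. Galnt18 (chromosome 7, 111471661 to 111779977, minus strand, mm10) had 5057 and 5380 reads with DMSO and 5038 and 5003 with the inhibitor. Its log2 fold change was -0.055 (95% interval -0.30 to 0.19), so a change as large as 1.5-fold lay outside the interval. Galnt2 (-0.031), Galnt6 (0.0036) and Galnt1 (0.11) had groups that overlapped.

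Galnt3, known for glycosylating the phosphate hormone FGF23, was the initiating enzyme of lowest p. It had 2303 and 2081 reads with DMSO and 2690 and 2866 with the inhibitor, so both inhibitor libraries were above both DMSO libraries. The log2 fold change was 0.34 ± 0.14 (SE), 1.27-fold, with an unadjusted p of 0.0290 that did not pass (limma, adjusted p = 0.289). It lies on chromosome 2 at 66082766 to 66124994, minus strand. Galnt10, which prefers substrates that already carry a sugar, was lower in both inhibitor libraries at low level, with 52.6 and 76.3 reads against 34.4 and 30.4 (-0.62 ± 0.57 in log2, SE; adjusted p by limma 0.687). The counting error of 1 library at the floor is 19.7%.

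Core 1 and core 2 genes also straddled 0, with 3 of 5 positive and a median log2 fold change of 0.015. C1galt1c1 differed more between replicates than between groups, with 878 and 325 reads with DMSO and 488 and 724 with the inhibitor. Its log2 fold change of 0.14 ± 0.37 (SE, limma adjusted p = 0.909) went to 0.82 or -0.54 when DMSO replicate 1 or 2 was left out, and to 0.41 or -0.13 when SCD1 inhibitor replicate 1 or 2 was. C1galt1, the enzyme itself, was at -0.065 with groups that overlapped. Gcnt1, the core 2 enzyme best known from leukocytes, had 78.9 and 77.3 reads with DMSO and 71.7 and 2.10 with the inhibitor. The gap thus lay between the inhibitor libraries: the log2 fold change was -0.99 ± 0.66 (SE, limma adjusted p = 0.552), and leaving out SCD1 inhibitor replicate 1 or 2 moved it to -1.90 or -0.092. Summed leukocyte markers stood at 767 in SCD1 inhibitor replicate 1 and 393 in replicate 2, and at 180 and 953 with DMSO. Their part in the value of Gcnt1 was not tested.

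Of 7 tested B3gnt genes, 5 were negative, and the median log2 fold change was -0.19. None had an unadjusted p under 0.05. B3gnt3, which extends core 1 chains, was at -0.37 ± 0.28 (SE), with 721 and 500.5 reads with DMSO and 525 and 401 with the inhibitor, so its groups overlapped. B3gnt9 (-0.31) and B3gnt2, the main enzyme of poly-N-acetyllactosamine (-0.19), had groups that did not overlap. B3gnt4 had 2490 and 2168 reads with DMSO and 2380 and 2464 with the inhibitor (log2 fold change 0.059 ± 0.14, SE, limma adjusted p = 0.900; -0.040 without DMSO replicate 2).

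Sialyltransferases were the family with the lowest median log2 fold change, -0.24 over 10 tested genes, of which 9 were negative and St3gal6 positive. The summed reads of all 14 sialyltransferases, tested or not, were 12219 and 12580 with DMSO and 11523 and 10921 with the inhibitor. The ratio of means was 0.905. None of the 10 tested genes passed. St3gal1 and St3gal2, which sialylate the core 1 sugar, were lower in both inhibitor libraries: St3gal2 had 3498 and 3705 reads with DMSO and 3015 and 3356 with the inhibitor. The log2 fold change was -0.18 (95% interval -0.45 to 0.099) for St3gal2 and -0.26 (-0.58 to 0.061) for St3gal1, both small beside the 2-fold bound. St3gal3 (-0.37) and St3gal5, the synthase of the ganglioside GM3 (-0.21), also had groups that did not overlap. In the same libraries 9 of 10 tested alveolar type 2 markers and all 11 club cell markers were negative, and 5 and 6 of them fell. Of 6 tested alveolar type 1 markers 5 were negative and 1 fell. Over all genes tested 49.3% were negative and 0.427% fell. Of 11 ciliated cell markers 7 were positive and 4 negative, and 1 rose. All 7 tested mesenchymal markers were positive, and none passed. The mesenchymal markers summed to 1557 and 3748 reads with DMSO and 3874 and 3687 with the inhibitor, so these sums overlapped. The alveolar type 2 markers summed to 421757 and 478237 reads with DMSO and 329454 and 272781 with the inhibitor, and the club cell markers to 770047 and 671345 and to 673228 and 464790. Their part in the sialyltransferase values was not tested. In bulk samples, fewer cells of a type and less RNA per cell cannot be told apart.

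St3gal6, which sialylates the ends of N-acetyllactosamine chains, was the positive member. It had 1302 and 1320 reads with DMSO and 1658 and 1711 with the inhibitor, and both pairs were tight. The log2 fold change was 0.36 ± 0.16 (SE), 1.28-fold, with an unadjusted p of 0.0437 (limma, adjusted p = 0.337). The gene (chromosome 16, 58468125 to 58524243, minus strand) shares 26.0% of its exon bases with Dcbld2 on the other strand, which had 2673 and 2414 reads with DMSO and 2651 and 2966 with the inhibitor. Reads of the 2 genes cannot be told apart there if counting ignored strand.

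St6galnac4, which adds a branching sialic acid to sialylated core 1, had 202 and 287 reads with DMSO and 97.5 and 141 with the inhibitor. Both inhibitor libraries were below both DMSO libraries, with a ratio of group means of 2.06. The log2 fold change was -0.90 ± 0.41 (SE), the unadjusted p 0.0480 and the limma adjusted p 0.349. The gene lies on chromosome 2 at 32587095 to 32599698, plus strand. Its relative St6galnac6 was at -0.40, with groups that overlapped, and so was St6galnac2 at -0.27.

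Among 5 tested fucosyltransferases the median log2 fold change was -0.17, and 3 were negative. Fut2, the secretor enzyme, places the terminal fucose of the H antigen on mucosal glycans (chromosome 7, 45648591 to 45666394, minus strand). Its 4 values, given above, left a wide gap between the groups: 121 ± 11.2 reads with DMSO against 21.0 ± 16.2 in the inhibitor group (mean ± SD, n = 2), a ratio of means of 5.75. The log2 fold change was -1.69 ± 0.56 (SE), 3.22-fold on the log2(value + 25.8) scale, the lowest of the 41 genes. Its unadjusted p was 0.00987 and its limma adjusted p 0.177, and leaving out SCD1 inhibitor replicate 1 or 2 moved it to -1.33 or -2.05. With edgeR on recovered reads the log2 fold change was -2.53 (adjusted p = 0.345). Fut1, which makes the same linkage, lay below the floor with 41.9 and 29.7 reads with DMSO and 16.2 and 0 with the inhibitor, so it was not among the 41 genes tested.

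Goblet cell markers were lower in the libraries in which Fut2 was lower. All 9 tested of 11 markers were negative and 6 fell, and the 11 summed to 106603 and 80992 reads with DMSO and 19207 and 37200 with the inhibitor. Of the inhibitor libraries, replicate 1 was the lower in both measures, while of the DMSO libraries replicate 1 was the lower for Fut2 and replicate 2 for the markers. Basal cell markers (5 of 5 tested negative, none passing) summed to 5232 and 3898 reads with DMSO and 913 and 3072 with the inhibitor. As given above, all 11 club cell markers and 9 of 10 tested alveolar type 2 markers were negative too, and 6 and 5 of them fell. Of the alveolar type 1 markers 5 of 6 tested were negative, and of the ciliated markers 4 of 11. All 7 tested mesenchymal markers were positive. The part of any of these cell types in the value of Fut2 was not tested.

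The 3 abundant fucosyltransferases had 95% intervals that crossed 0 and lay within a 2-fold change. Fut11 had 1162 and 1090 reads with DMSO and 1278 and 1103 with the inhibitor (log2 fold change 0.076, 95% interval -0.32 to 0.47; -0.029 without SCD1 inhibitor replicate 1). Fut4, which makes Lewis-type fucose linkages, was at -0.17 (-0.60 to 0.26) and Fut8, the core fucosyltransferase of N-linked chains, at -0.17 (-0.61 to 0.28). All 3 had groups that overlapped. Reads of Fut4 and its pseudogene copy could be split by the authors' counting, but the copy was listed at 0.

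**Figure D3:**
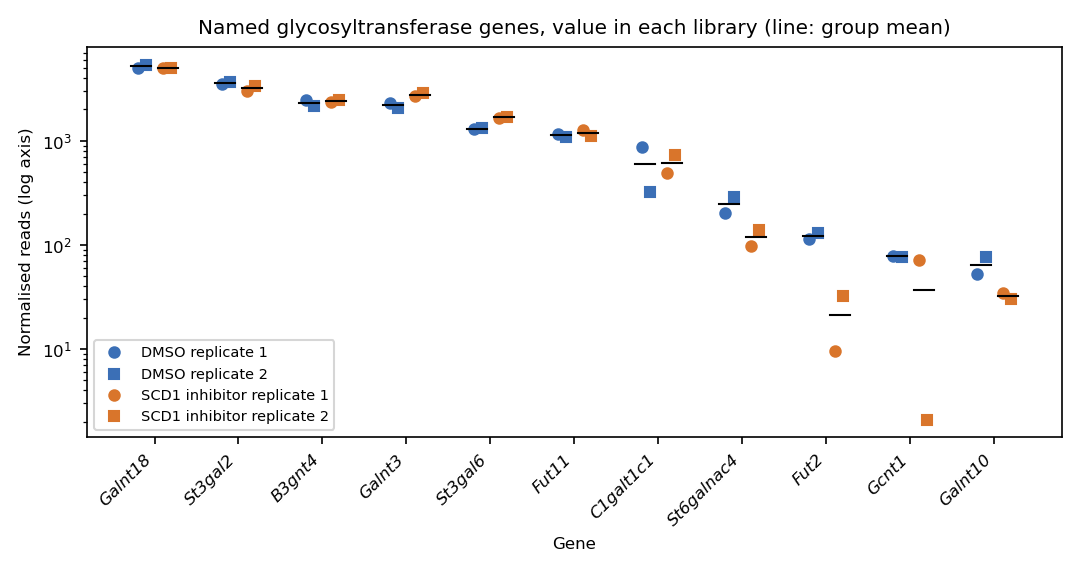
Normalised reads (log axis) in each library for the 11 genes named by rule: those of lowest p, those with a log2 fold change of at least 0.5 either way and no overlap, and the highest per kilobase in each family. Circles are replicate 1, squares replicate 2, and lines group means; the Fut2 values with the inhibitor (9.56 and 32.5) lie well below those with DMSO (113 and 129), while C1galt1c1 and Gcnt1 spread within a group.

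The other genes of the pathway were read from lists of related function. In the list of other chain and sulfation enzymes, 15 of 22 tested genes were negative and none passed (median log2 fold change -0.12). The lowest p there was that of B4galnt1, which makes the gangliosides GM2 and GD2 (-0.48 ± 0.13, SE, limma adjusted p = 0.0974), and next came B4galt6, a lactosylceramide synthase (1.22 ± 0.54, SE, adjusted p = 0.336). B4galnt1 passed with the replicate number as a block (limma adjusted p = 0.0157), with DESeq2 (0.0286) and without DMSO replicate 2 (0.0337). Of 26 genes for sugar donors and their Golgi transport, 18 were negative, none passed, and the median was -0.17. Slc35c1, the GDP-fucose carrier that feeds the Fut enzymes, had 1089 and 1094 against 701 and 828 (-0.50 ± 0.20, SE, adjusted p = 0.274). The sialidases Neu1 (-0.34) and Neu3 (0.30, and -0.33 without DMSO replicate 2) had the lowest p of 5 sialidases and fucosidases, none of which passed.

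Genes that passed stood outside the glycosyltransferase families described here. Of 13 genes for N-linked chains, 1 fell: Mgat3, which adds the bisecting N-acetylglucosamine, with 5195 and 4376 reads with DMSO and 3374 and 3085 with the inhibitor (-0.56 ± 0.13, SE, limma adjusted p = 0.0499). The call ended when DMSO replicate 1 (limma adjusted p = 0.0620), SCD1 inhibitor replicate 1 (0.410) or SCD1 inhibitor replicate 2 (0.724) was left out. It also ended with a pseudocount of 0.25 CPM (limma adjusted p = 0.0596), no floor (0.103), a floor of 5 CPM (0.0504) and column-total scaling (0.0543). Of 24 Golgi structure genes, 2 rose, both tethers of Golgi vesicles: Gcc2 (2.29-fold, adjusted p = 0.00454) and Trip11 (2.21-fold, adjusted p = 0.0473). Leaving out either inhibitor library ended both calls (limma adjusted p between 0.208 and 0.544), and that of Trip11 also without DMSO replicate 2 (log2 fold change 0.61, adjusted p = 0.0579). Trip11 did not pass either with a pseudocount of 0.25 CPM (limma adjusted p = 0.0597), no floor (0.135), a floor of 5 CPM (0.0530), TMM scaling (0.0580) or column-total scaling (0.0536). Among 10 mucin-domain proteins, the substrates, Muc5b fell (log2 fold change -1.88, adjusted p = 0.00362) and the membrane mucin Muc4 rose (1.58, adjusted p = 0.000365). With SCD1 inhibitor replicate 1 left out neither passed (limma, 0.0727 and 0.0596). With edgeR, Muc4 was the 1 gene of these 5 that passed (adjusted p = 0.0392), and without the intensity trend none did. Whether these genes differed in their response from the members of the symbol families was not tested.

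**Figure D4:**
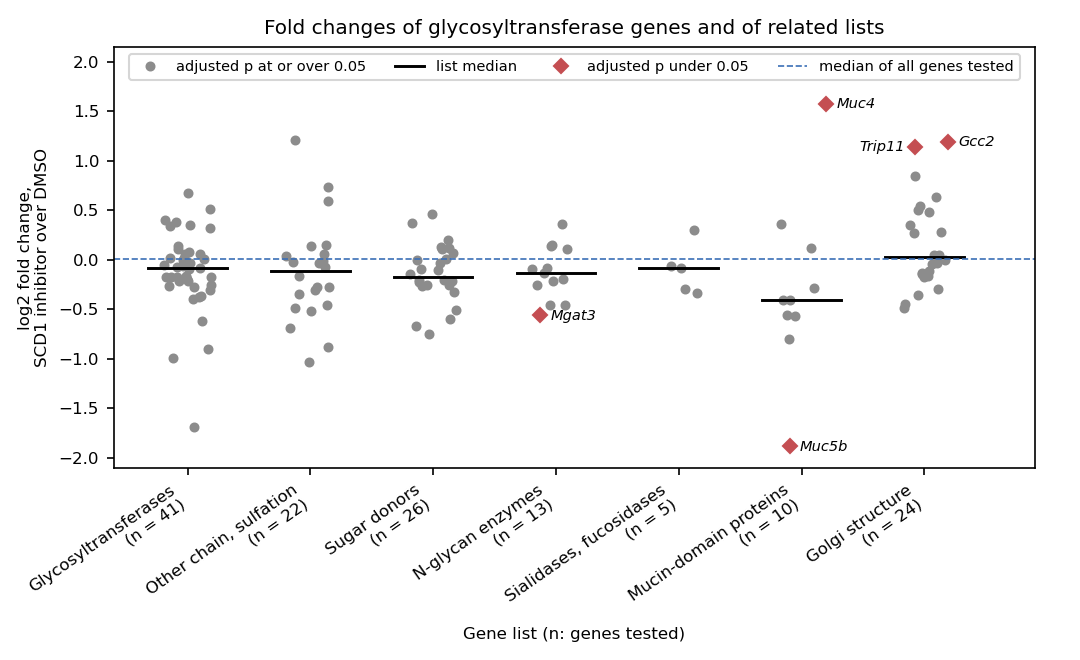
Log2 fold changes (inhibitor over DMSO, vertical axis) of the tested glycosyltransferase genes and of 6 related lists; each point is a gene, black lines are list medians, the dashed line is the median of all genes tested (0.0056) and diamonds passed at an adjusted p under 0.05. No point in the column of the glycosyltransferase symbol families is a diamond, and the 5 diamonds, all in related lists, are Mgat3, Muc4, Muc5b, Gcc2 and Trip11.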

How the data were processed

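The authors deposited 1 table of signal values, which are gene read counts scaled by a library size factor; HOMER, DESeq2 and mm10 are named in the submitters' processing notes, without versions or roles. Libraries were made with a directional kit, per the labels' protocols; neither the aligner nor the strand of counting is stated in those sources. Every value was a whole multiple of its library's smallest step (100% within 0.01), and the inverse steps equalled median-of-ratios size factors, so whole reads were recovered. For DMSO replicate 2 the step (0.991) is so near 1 that this rests on the size factor as well.

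Values were tested with limma 3.58.1 (R 4.3.3) on log2(value + 25.8), with an intensity trend, group as its only term and Benjamini-Hochberg adjustment over the 13810 genes at or above a floor of 1 CPM (25.8) (threshold 0.05, two-sided). An exact permutation test with 2 against 2 samples cannot go below p = 0.333, so none was used. Intervals are 95% limits from limma. The fits were tested on simulated data. Genes and lengths were matched by symbol to GENCODE M21 (GRCm38), where all 58 were found. Read totals cover counting error only, and PCR copies are not independent molecules.

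The genes and lists were chosen with earlier results of these data known. Genes named were those with p under 0.05, those with a log2 fold change of at least 0.5 either way and no overlap, the highest per kilobase in each family, and from each related list those that passed (otherwise the 2 of lowest p). One gene that the rule would name is not reported here. Others, named after their values were seen, illustrate a family. Alternatives were the replicate block, other pseudocounts, floors and scalings, no trend, edgeR 4.0.16, DESeq2 1.42.0 and each library left out. Figures used Python 3.11.15 and matplotlib 3.10.9.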

Additional observations from a re-analysis of the deposited data

How the results depend on the processing

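No member of the glycosyltransferase symbol families passed at an adjusted p under 0.05, in either direction, with limma on all libraries. None passed either with the replicate number as a block, a pseudocount of 0.25 or 4 CPM, no floor or a floor of 5 CPM. The same held with TMM or column-total scaling, no intensity trend, edgeR and DESeq2. In these fits the lowest adjusted p of a member ran from 0.105 (Fut2, limma with the replicate block) to 0.453 (Fut2, limma without the intensity trend). DESeq2 gave no adjusted p for 36 of its 53 members. The genes at an unadjusted p under 0.05 differed between fits. With limma on all libraries they were Fut2, Galnt3, St3gal6 and St6galnac4. These 4 stayed with the replicate block, either other pseudocount, either other scaling and edgeR. St6galnac4 dropped out with no floor, a floor of 5 CPM and DESeq2. St3gal6 dropped out with DESeq2 and without the intensity trend, and Galnt3 without the trend. Fut2 stayed in every fit on all libraries that tested it. Genes at an unadjusted p under 0.05 numbered 4 with limma, 5 with edgeR and 4 with DESeq2 and with the replicate block, 2 with a floor of 5 CPM (34 members tested), and 1 to 6 with 1 library left out. They were 1 without SCD1 inhibitor replicate 1 (Gcnt1) and 1 without SCD1 inhibitor replicate 2 (Fut2), and 6 without either DMSO replicate. The members' median log2 fold change lay between -0.10 and -0.074 under the other settings and between -0.17 and -0.0031 with 1 library left out. The lowest was without DMSO replicate 2 (-0.17), beyond the spread between replicates (0.078). Named log2 fold changes that changed sign without 1 library ran from -0.54 to 0.82 (C1galt1c1), -0.040 to 0.16 (B3gnt4), -0.029 to 0.18 (Fut11) and -0.33 to 0.92 (Neu3). The cause was not tested. Calls over all genes, 188 higher and 59 lower, were 469 and 205 with the replicate block, 51 and 13 with no floor, 0 and 0 without the trend (10.3% at an unadjusted p under 0.05), 7 and 3 with edgeR and 339 and 145 with DESeq2. Without 1 library they were 616 and 179, 240 and 115 (DMSO replicates 1 and 2), 0 and 5, and 3 and 12 (SCD1 inhibitor replicates 1 and 2). Same-numbered samples correlated in their deviations at 0.073 across genes, and no label says that a number marks a shared animal. The values say least about the 17 genes under the floor and the 13 with wide intervals. Of these 13, St6galnac2 had 296 to 658 reads per library. The part of depth in these limits was not tested.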
